A study of Mus musculus with 48 samples.

Results

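The first hour of S phase after loss of FOXD3 was followed in mouse embryonic stem cells by comparing nascent RNA 1 h after release from a double thymidine block with nascent RNA at release (0 h), in cells treated with 4-hydroxytamoxifen (4HT). The comparison was defined by the sample labels alone and uses 4 libraries, 2 at 1 h and 2 at 0 h, of the 24 in the synchronized experiment and 48 in the series. All 4 come from the line labelled FOXD3-iKO, in which 4HT induces depletion of FOXD3, a forkhead family transcription factor active in pluripotent cells. Cells were grown in L2i medium and released 24 h after the start of treatment. Transcripts made in the last 15 min were labelled with 4-thiouridine (4SU), a uridine analogue taken up into new RNA. The ethanol (EtOH) libraries of the same line, 2 at 1 h and 2 at 0 h, went through the same block without 4HT and serve as the vehicle arm. The labels do not say whether 2 libraries of a group came from separate cultures, so that the p-values measure the spread between libraries, which may be technical.

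Thymidine in excess starves cells of dCTP and stops replication forks, and its removal lets the arrested population enter and cross S phase together. During S phase, replication-dependent histone genes supply the proteins that package new DNA. Genes for mitosis are classically switched on later, in G2, by the MuvB-B-MYB-FOXM1 machinery, which binds a promoter element named the cell cycle genes homology region (CHR), often beside CCAAT boxes bound by NF-Y. Mouse embryonic stem cells have a short G1 and largely lack the checkpoint at its end.

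The deposited counts cover whole gene intervals, introns included. The 4 libraries held 7953841 to 12665889 counts, and 3 counts, the floor used here, correspond to 0.237 to 0.377 counts per 1000000 (CPM). The 2 genes that collect ribosomal RNA reads, Gm26917 and Gm42418, took 15.6 to 19.7% of counts in these 4 libraries and 3.41 to 25.4% over all 24. Of 9 embryonic stem cell markers, 8 were above the floor in every library, with summed levels of 2550 to 2840 CPM at 1 h and 2840 to 3010 CPM at 0 h. The remaining marker, Sox2, was listed at 0 counts. Its interval lies wholly inside Sox2ot on the same strand, and 0 of 6484 genes nested in this way had any count, against 2745 of 6310 genes nested only on the other strand. Fibroblast markers summed to 4.05 to 5.6 CPM at 1 h and 3.22 to 5.79 CPM at 0 h with Lum at 0, and neural markers to 11.5 to 13.3 CPM at 1 h and 11.6 to 13.3 CPM at 0 h with Sox1, Tubb3 and Neurod1 at 0. Blood and endothelial markers summed to 306 to 330 CPM at 1 h and 311 to 318 CPM at 0 h, with Hbb-bt and Hba-a1 at 0. Nearly all of that sum was Pecam1, with 253 and 269 CPM at 1 h and 259 and 240 CPM at 0 h, and Tek. Tek had 47.2 and 55.1 CPM at 1 h and 47.2 and 70.7 CPM at 0 h. Primitive endoderm markers summed to 46.4 to 57.6 CPM at 1 h and 58.8 to 63.7 CPM at 0 h with Foxa2 at 0, and trophectoderm markers to 56.4 to 57.4 CPM at 1 h and 67 to 69.2 CPM at 0 h.

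The targeted gene, Foxd3, was low in the 4HT-treated cells at both times. It had 1.24 and 1.28 CPM at 1 h and 1.87 and 2.19 CPM at 0 h after 4HT, and 5.72 and 8.24 CPM at 1 h and 5.84 and 5.56 CPM at 0 h after ethanol. All 4 of the 4HT values lay below all 4 ethanol values. Against ethanol, Foxd3 was lower by a log2 difference of -2.46 at 1 h (edgeR quasi-likelihood test, adjusted p = 0.0038) and of -1.50 at 0 h, where the same test missed the threshold (adjusted p = 0.076). At 1 h 2.4% of all genes were called against ethanol (1.82% higher, 0.581% lower), and at 0 h 0.445% (0.389% higher, 0.0564% lower). The 1 h call was lost without replicate 2 of 4HT 1 h (adjusted p = 0.0574) or replicate 2 of EtOH 1 h (adjusted p = 0.0558), and the 0 h difference passed with DESeq2 (adjusted p = 0.0181), with the length trend removed (adjusted p = 0.043) and without the low-count filter (adjusted p = 1.27e-05). Within the 4HT arm the change of Foxd3 over the first hour was -0.67 (adjusted p = 0.46). The labels do not say which bases of the gene are affected, and counts over the whole interval may include RNA from the rest of it.

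Over the first hour without FOXD3, 565 genes were called higher and 528 lower among 17739 tested (edgeR quasi-likelihood test, Benjamini-Hochberg adjusted p under 0.05). That is 6.16% of the genes tested, 3.19% in the upward and 2.98% in the downward direction, and changes past 2-fold made up 88 and 142 of them. The median change of all tested genes was -0.003 on the log2 scale. At an unadjusted p under 0.05 edgeR had 3513 of the 17739 genes, the share to set beside the list counts below. DESeq2 called 732 genes higher and 505 lower. Both libraries of 1 time lay above both of the other in 48.8% of the genes tested. Genes of mitosis and replication-dependent histone genes were prominent among those that rose, and immediate early genes and several p53 targets among those that fell. The count rests on few libraries: it was 234 without replicate 2 and 656 without replicate 1 of 4HT 1 h, and 321 without replicate 2 and 299 without replicate 1 of 4HT 0 h. Scaling by total counts alone left 341 calls, of which 27.3% were higher, against 51.7% in the fit used here. That scaling and the one outside the ribosomal RNA genes, with 545 calls and 28.1% higher, moved the median of all genes to -0.114 and -0.119. The medians of the mitotic, histone, immediate early and p53 lists kept their direction under both. In bulk RNA, a larger share of cells at a cell cycle stage and more transcription per cell cannot be told apart.

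**Figure D1:**
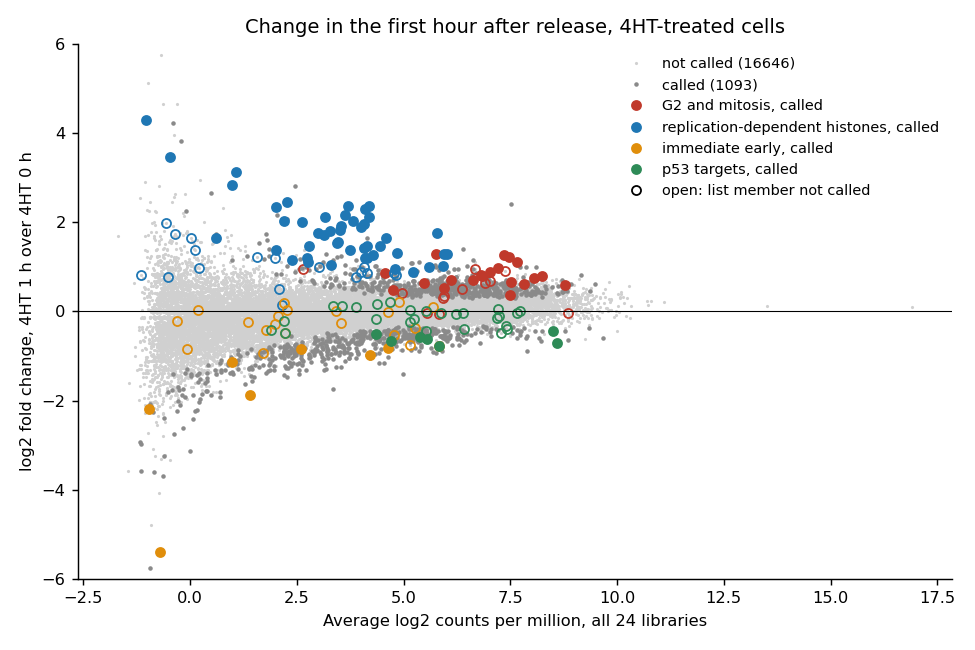
Each point is a gene, placed by its average level over all 24 libraries (log2 CPM, horizontal) and its log2 fold change, 4HT 1 h over 4HT 0 h (vertical). Filled coloured points are called members of 4 gene lists and open ones are members not called. Histone genes (blue) sit above 0 at log2 changes of 0.14 to 4.30, the largest (Hist3h2bb-ps) resting on 1 count at 0 h. The called mitotic genes (red) sit above 0 at 0.38 to 1.30. Called immediate early genes (orange) and p53 targets (green) sit below 0.

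Most genes of the G2 and mitosis list rose. Of 32 such genes, all of them tested, 20 were called higher and 0 lower, and their median log2 change was 0.69, against -0.003 for all genes tested. At an unadjusted p under 0.05 there were 28 higher and 0 lower, and DESeq2 called 23 higher and 0 lower. The 2 libraries at 1 h summed to 4040 and 4546 CPM over the list, above the 2756 and 2862 CPM at 0 h. The number called was 16 without replicate 1 of either time, 14 without replicate 2 of 4HT 0 h, 13 without replicate 2 of 4HT 1 h, and 10 with scaling by total counts alone.

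Promoters of called mitotic genes are shown because many hold short elements that played no part in making the list or the calls. The letters TTTGAA of the CHR were searched on both strands in RefSeq promoter windows of 300 bases (250 before to 50 after the start site, build GRCm38.p6). They were found in 15 of the 18 called members that have a window in the table (83.3%), in 3 of 10 members not called, and in 1959 of 12620 tested genes (15.5%). Over all 32851 windows the share was 17.9%. The letters CCAAT, on either strand, were in 16 of the 18 (88.9%), 5 of the 10, 42.8% of tested genes and 37.4% of all windows. Neither element was particular to mitotic genes: called histone genes held CCAAT in 33 of 42 with a window (78.6%) and TTTGAA in 17 (40.5%). Among all genes called higher, 113 of 462 with a window held TTTGAA (24.5%), and among those called lower 64 of 377 (17%). The forkhead letters TGTTTAC were in 6 of those 462 windows (1.3%), in 12 of the 377 (3.18%) and in 3.18% of tested genes. A match is a description of these letters and not a mapped binding site. In the windows below, which run 5′ to 3′ on the strand of the gene, capitals mark TTTGAA, and CCAAT or its reverse complement ATTGG. The marked elements do not overlap in any of them. The 5 genes were chosen after their values were seen: 4 with TTTGAA and small p, and Ccnb1, a called gene without it.
Bub1b promoter (chr2:118597961-118598260, plus strand): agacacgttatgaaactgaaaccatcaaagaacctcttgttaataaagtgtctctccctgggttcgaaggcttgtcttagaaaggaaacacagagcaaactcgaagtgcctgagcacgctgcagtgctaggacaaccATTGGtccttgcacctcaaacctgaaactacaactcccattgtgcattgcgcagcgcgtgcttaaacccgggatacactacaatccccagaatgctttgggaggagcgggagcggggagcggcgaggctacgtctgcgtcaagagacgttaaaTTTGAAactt
Aurka promoter (chr2:172370521-172370820, minus strand): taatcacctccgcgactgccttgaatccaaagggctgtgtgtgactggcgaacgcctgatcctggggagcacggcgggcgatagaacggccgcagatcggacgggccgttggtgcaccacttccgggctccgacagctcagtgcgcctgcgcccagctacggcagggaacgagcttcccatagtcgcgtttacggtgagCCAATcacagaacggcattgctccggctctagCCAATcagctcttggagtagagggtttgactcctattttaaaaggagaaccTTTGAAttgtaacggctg
Plk1 promoter (chr7:122159185-122159484, plus strand): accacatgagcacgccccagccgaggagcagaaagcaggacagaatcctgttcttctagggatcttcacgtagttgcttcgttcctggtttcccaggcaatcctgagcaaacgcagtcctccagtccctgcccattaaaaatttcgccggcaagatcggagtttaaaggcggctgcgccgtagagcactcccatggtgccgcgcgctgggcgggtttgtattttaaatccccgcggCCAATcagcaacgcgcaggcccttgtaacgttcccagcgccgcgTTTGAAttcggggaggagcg
Kif23 promoter (chr9:61946750-61947049, minus strand): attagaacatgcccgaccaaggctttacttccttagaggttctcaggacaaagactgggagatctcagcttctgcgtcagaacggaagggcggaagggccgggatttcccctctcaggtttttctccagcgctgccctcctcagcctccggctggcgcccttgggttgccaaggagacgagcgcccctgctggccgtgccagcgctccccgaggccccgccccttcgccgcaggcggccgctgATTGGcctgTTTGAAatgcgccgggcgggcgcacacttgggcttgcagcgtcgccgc
Ccnb1 promoter (chr13:100786437-100786736, minus strand): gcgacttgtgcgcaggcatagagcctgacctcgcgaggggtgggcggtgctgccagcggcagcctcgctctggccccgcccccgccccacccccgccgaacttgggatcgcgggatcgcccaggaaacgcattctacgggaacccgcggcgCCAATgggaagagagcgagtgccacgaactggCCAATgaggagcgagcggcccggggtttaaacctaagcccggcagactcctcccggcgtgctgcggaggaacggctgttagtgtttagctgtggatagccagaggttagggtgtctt

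TTTGAA begins 41 bases after the start site in Bub1b, 33 in Aurka, 31 in Plk1 and 3 in Kif23. In Ccnb1 only CCAAT boxes were found, beginning 99 and 67 bases before the start.

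Among the mitotic kinases, Bub1b, which encodes the spindle checkpoint protein BUBR1, had 148 and 184 CPM at 1 h, against 67.9 and 70.9 CPM at 0 h. Its values at 1 h lay far above both at 0 h, and the log2 change was 1.26 ± 0.11 (SE; edgeR adjusted p = 2.1e-05), or 2.4-fold. Plk1, the kinase of mitotic entry and spindle poles, had 44.2 and 49.5 CPM at 1 h, against 20.4 and 17.5 CPM at 0 h. It rose 2.46-fold, the highest fold of the list (log2 1.30 ± 0.13, edgeR adjusted p = 5.8e-05). Aurka, the centrosomal Aurora kinase, had 131 and 142 CPM at 1 h and 67.4 and 71 CPM at 0 h, and its activator Tpx2 had 206 and 249 CPM at 1 h and 112 and 98.3 CPM at 0 h. In both genes the libraries of the 2 times did not overlap. Their log2 changes were 0.98 ± 0.10 and 1.11 ± 0.11 (edgeR adjusted p = 5.8e-05 for both). Cdk1, the catalytic subunit of the mitotic kinase, had 289 and 299 CPM at 1 h and 171 and 167 CPM at 0 h. Its change of 0.80 ± 0.11 (edgeR adjusted p = 0.00084) exceeded those of its cyclins Ccnb2, 0.52, and Ccnb1, 0.38, a difference between genes that was not tested. Ccnb1 had 149 and 166 CPM at 1 h and 119 and 123 CPM at 0 h. Its call was lost without any 1 of the 4 libraries, and that of Ccnb2 without replicate 2 of either time, with adjusted p over the 12 alternatives of up to 0.556 for Ccnb1 and 0.317 for Ccnb2. Scaling by total counts alone ended the call of Cdk1 (adjusted p = 0.0786).

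Genes of the spindle and of cytokinesis were also among the called members. Prc1, which bundles midzone microtubules, had 122 and 142 CPM at 1 h and 71.9 and 70.6 CPM at 0 h. Kif23, a motor of the centralspindlin complex, had 106 and 123 CPM at 1 h and 64.2 and 68.4 CPM at 0 h. Both were clear of the 0 h libraries, with log2 changes of 0.89 ± 0.10 and 0.79 ± 0.09. Racgap1, the partner of Kif23, is not in the list and was picked out after its values were seen: it had 95 and 112 CPM at 1 h and 47.5 and 45.4 CPM at 0 h (log2 1.16 ± 0.10, edgeR adjusted p = 2.1e-05). Cenpf, a kinetochore protein, had 133 and 148 CPM at 1 h and 57.3 and 63.1 CPM at 0 h, a log2 change of 1.22 ± 0.22. Cdc20 and Ube2c, an activator and an E2 enzyme of the anaphase-promoting complex, changed by 0.64 and 0.69. Both of these calls were lost when single libraries were left out, Cdc20 without replicate 1 of 4HT 1 h or replicate 2 of 4HT 0 h (adjusted p up to 0.0838) and Ube2c without any 1 of the 4 (adjusted p up to 0.244). The 12 members not called included Kif20a (0.34, edgeR adjusted p = 0.059), Mki67 (0.68, adjusted p = 0.11), Foxm1 itself (0.41, adjusted p = 0.13) and Mybl2, which encodes B-MYB (-0.03, adjusted p = 0.95). Mybl2 had 496 and 524 CPM at 1 h and 538 and 505 CPM at 0 h, values that overlap.

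**Figure D2:**
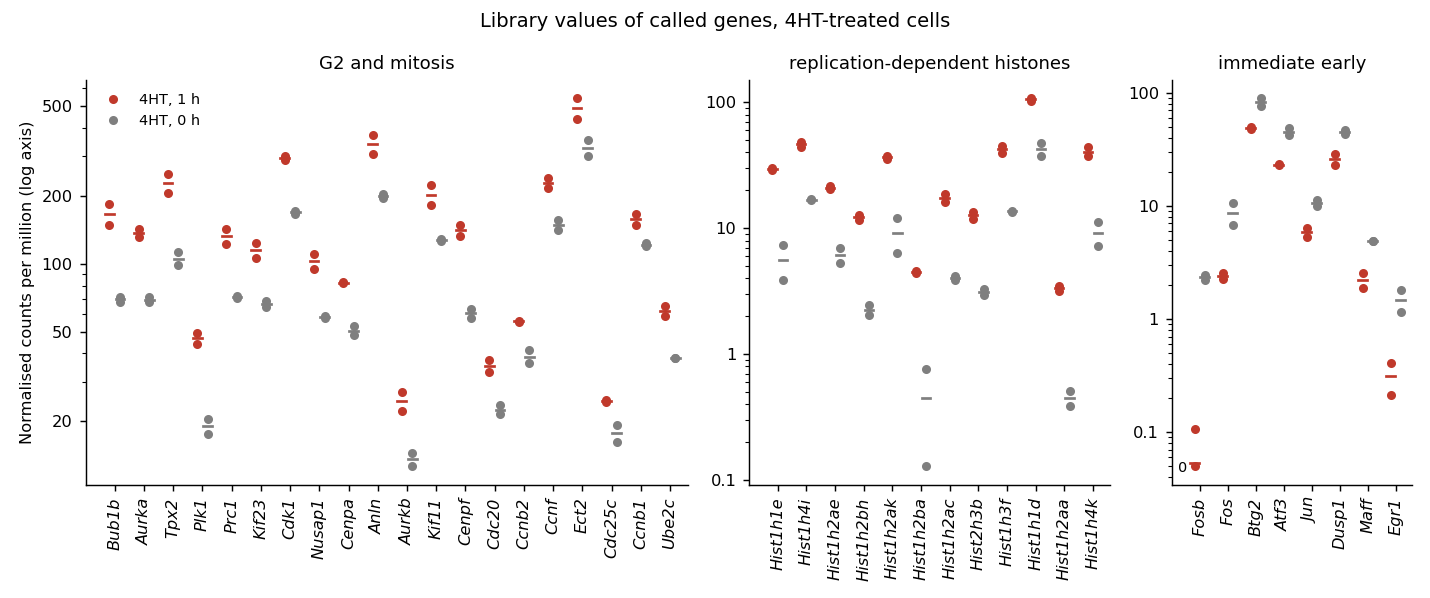
CPM of each library (points, log axis) and group mean (bars) at 4HT 1 h (red) and 4HT 0 h (grey) for the 20 called G2 and mitosis genes, the 12 histone genes of smallest p and the 8 called immediate early genes. Each red pair lies above its grey pair for mitotic and histone genes and below it for immediate early genes. A library at 0 is drawn at the bottom and marked 0 (Fosb).

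Medians of the mitotic list were higher still at later hours. The median log2 difference of the list from 4HT 0 h was 0.69 at 1 h, 0.85 at 2 h, 0.91 at 3 h, 1.02 at 4 h and 1.07 at 5 h, all 5 comparisons sharing the same 0 h libraries. Cenpf had 144 and 164 CPM at 2 h and 248 and 316 CPM at 5 h, while Tpx2 had 205 and 212 CPM at 2 h and 246 and 277 CPM at 5 h. Plk1 stood at 59.8 and 56.1 CPM at 2 h and 60 and 59.9 CPM at 5 h.

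Replication-dependent histone genes made up 12 of the 15 largest rises among well-detected genes with an established symbol (average log2 CPM of at least 1). These genes encode the core and linker histones made in S phase, and their transcripts end in a stem-loop in place of a poly(A) tail. Of 70 listed, 65 passed the low-count filter, 47 were called higher and 0 lower, and the median log2 change was 1.46. DESeq2 called 49 higher and 0 lower, and 60 were higher and 0 lower at an unadjusted p under 0.05 in edgeR. Each of the 65 had a positive change, between 0.14 and 4.30. The largest, that of Hist3h2bb-ps, rests on 26 counts at 1 h against 1 at 0 h (ratio 23.6, 95% counting interval 3.87 to 967). By class, 12 of 13 H4 genes were called (median 1.93), 11 of 18 H2A (1.46), 5 of 6 H1 (1.29), 13 of 17 H2B (1.20) and 6 of 11 H3 (0.88). Differences between classes were not tested. The 65 genes summed to 1660 and 1666 CPM at 1 h, against 693 and 596 CPM at 0 h. The number called fell to 27 without replicate 1 and 23 without replicate 2 of 4HT 0 h, and to 35 without replicate 1 and 32 without replicate 2 of 4HT 1 h. Copies of a class are nearly identical, and the labels do not say how reads matching several copies were counted, so that the split between copies is uncertain.

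Hist1h1e, a linker histone gene, had 29.1 and 30.2 CPM at 1 h, against 7.32 and 3.87 CPM at 0 h. It rose 5.13-fold (log2 2.36 ± 0.30, edgeR adjusted p = 0.00038). Hist1h4c had 25.3 and 28.9 CPM at 1 h and 5.28 and 5.15 CPM at 0 h, a change of 2.37 ± 0.43 (edgeR adjusted p = 0.0037) that missed the threshold without replicate 1 of 4HT 0 h (adjusted p = 0.0548). Hist1h4i had 44.6 and 48.6 CPM at 1 h and 16.7 and 17.1 CPM at 0 h, and Hist1h3f had 45.2 and 39.6 CPM at 1 h and 13.7 and 13.5 CPM at 0 h. In all 4 genes both 1 h libraries exceeded both 0 h libraries. The other histones among the 15 largest rises were Hist1h2ba, Hist1h2bh, Hist1h4m, Hist1h4h, Hist4h4, Hist1h4k, Hist1h2ac, Hist1h4f, Hist1h2ah and Hist2h3b, between 4 and 8.78-fold. The 18 not called were also positive, for example Hist1h3a at 0.85 (edgeR adjusted p = 0.054) and Hist1h4a at 0.86 (adjusted p = 0.19). Trim17, a gene with a change of 2.16 ± 0.33, had 10.5 and 9.07 CPM at 1 h and 1.62 and 2.96 CPM at 0 h, and 13.9% of its interval is shared with Hist3h2a and Gm12260 on the same strand, so that the gene the reads come from is uncertain. Of the genes that regulate histone transcripts, 1 of 8 was called, Zfp473 (0.36, edgeR adjusted p = 0.042), a call lost in 10 of 12 alternatives.

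After 1 h the histone list was again close to its level at release. Relative to 4HT 0 h, the list median was 1.46 at 1 h, 0.20 at 2 h, -0.25 at 3 h, -0.27 at 4 h and -0.13 at 5 h, and the summed level was 852 and 618 CPM at 2 h and 606 and 480 CPM at 3 h. Hist1h4i had 15.2 and 12.3 CPM at 2 h, below its 0 h libraries, while Hist1h1e still had 22.3 and 16.6 CPM at 2 h, above them.

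**Figure D3:**
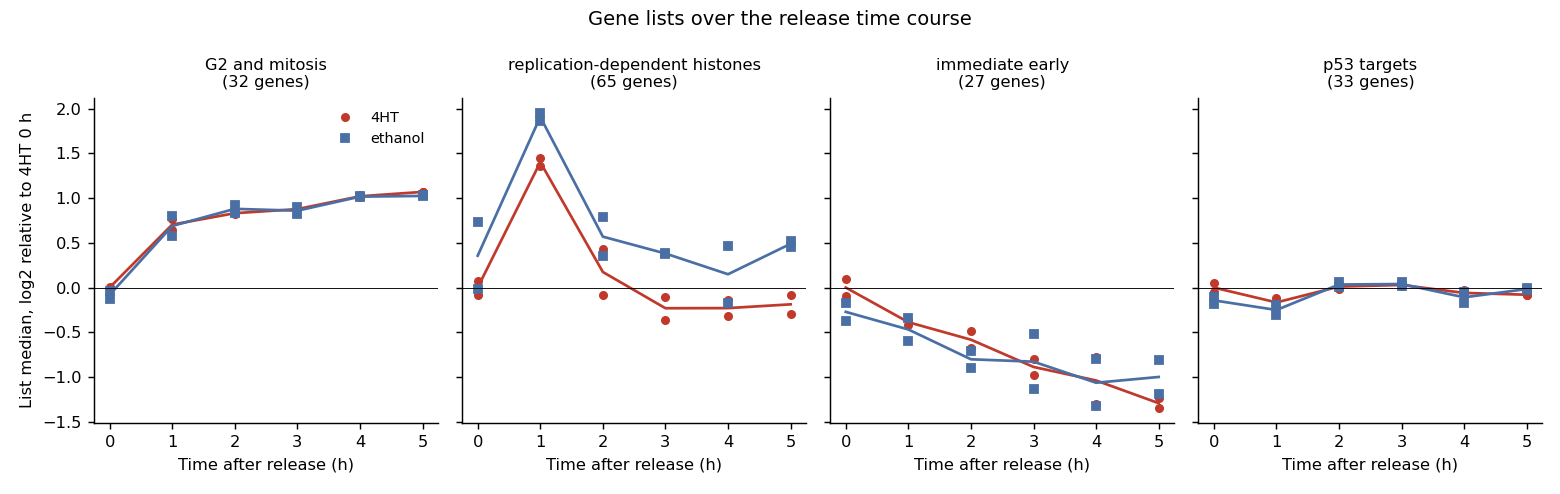
Median log2 level of the list members in each library relative to the mean of 4HT 0 h (vertical) by hours after release (horizontal), for 4HT (red circles) and ethanol (blue squares), with lines through group means. The mitotic list climbs at 1 h and goes on climbing, the histone list peaks at 1 h (1.45 and 1.35 in the 4HT libraries), the immediate early list declines, and the p53 list dips at 1 h.

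Several immediate early genes, the fast response to growth factors and stress, fell. Of 27 tested (32 listed), 8 were called lower and 0 higher, with a median log2 change of -0.41. DESeq2 called 6 lower and 0 higher, and 12 were lower and 0 higher at an unadjusted p under 0.05 in edgeR. Fos, which encodes an AP-1 subunit, had 2.55 and 2.24 CPM at 1 h, against 10.6 and 6.7 CPM at 0 h. Its level at 0 h was 3.64-fold that at 1 h (log2 change -1.87 ± 0.32, edgeR adjusted p = 0.0027). Fosb had 0 and 0.107 CPM at 1 h and 2.47 and 2.19 CPM at 0 h, which is 1 count against 46 and a ratio of 0.0197 (95% counting interval 0.000489 to 0.115; edgeR adjusted p = 0.0011). Atf3, a stress-induced factor, had 23.3 and 22.8 CPM at 1 h and 48.5 and 42 CPM at 0 h, a change of -0.97 ± 0.17. Jun, Dusp1, Maff, Egr1 and Btg2 were the other called members. Egr1 was at 0.412 and 0.213 CPM at 1 h and 1.79 and 1.16 CPM at 0 h, close to the floor of 0.237 to 0.377 CPM. Myc had 7.58 and 5.44 CPM at 1 h and 7.66 and 5.03 CPM at 0 h, which overlap, and Nr4a1 had 39.5 and 39.7 CPM at 1 h and 35.1 and 33.2 CPM at 0 h (0.21, adjusted p = 0.51). Of the 8, 2 were called without replicate 1 of 4HT 0 h, where Fos (adjusted p = 0.0644) and Btg2 (adjusted p = 0.0671) were lost. The number was 4 without replicate 2 of either time and 5 without replicate 1 of 4HT 1 h. The list median was lower still at later hours, at -0.62 at 2 h, -0.99 at 3 h, -1.14 at 4 h and -1.25 at 5 h against the same 0 h libraries.

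Targets of p53, the tumour suppressor that answers DNA damage, were called lower in 7 of 33 cases and higher in 0. The median log2 change was -0.18, and 9 of the 33 had a positive fitted change. DESeq2 called 8 lower and 0 higher, and 13 were lower and 0 higher at an unadjusted p under 0.05 in edgeR. Trp53inp1, a stress-induced p53 partner, had 295 and 318 CPM at 1 h and 471 and 533 CPM at 0 h (-0.71 ± 0.17, edgeR adjusted p = 0.018). Mdm2, the ubiquitin ligase of p53, had 293 and 365 CPM at 1 h and 438 and 452 CPM at 0 h (-0.44 ± 0.11, edgeR adjusted p = 0.032). Bbc3, which encodes the pro-apoptotic protein PUMA, had 26.4 and 24 CPM at 1 h and 39.1 and 41.2 CPM at 0 h. These 3 genes were lower in both 1 h libraries than in both 0 h libraries. Plk2, Ddit4l, Phlda3 and Btg2 were also called, Btg2 being shared with the immediate early list. Cdkn1a, the CDK inhibitor p21, had 126 and 130 CPM at 1 h and 181 and 158 CPM at 0 h and missed the threshold (-0.40, adjusted p = 0.071). At 2 h Mdm2 had 391 and 394 CPM and Cdkn1a 187 and 174 CPM. The list summed to 2981 and 3082 CPM at 0 h, 2358 and 2530 CPM at 1 h and 3045 and 3131 CPM at 2 h, so that the 1 h libraries were the lowest. The number called was 1 without replicate 1 and 2 without replicate 2 of 4HT 0 h, 4 without replicate 1 and 2 without replicate 2 of 4HT 1 h, and 4 with the compared groups alone or total-count scaling. With the compared groups alone the spread is estimated from 4 libraries.

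The lists of DNA replication genes held few calls, as did all genes tested, of which 6.16% were called. Of 26 genes of origin licensing and firing, 18 of deoxynucleotide supply and 26 of DNA damage signalling, 0 were called in either direction. Beside that share, 0 calls in lists of this size do not set them apart from other genes. At an unadjusted p under 0.05 edgeR had 2 higher and 5 lower of the first list, 4 higher and 0 lower of the second, and 2 higher and 1 lower of the third. Over all 17739 genes tested, 3513 were at that level. DESeq2 called 1 higher and 1 lower, 0 and 0, and 2 higher and 0 lower of the 3 lists, and 732 higher and 505 lower of all genes. The smallest adjusted p was that of H2afx, a histone variant phosphorylated at DNA breaks, at 0.0572 (0.92, with 54.1 and 53.9 CPM at 1 h and 31.6 and 25.4 CPM at 0 h). Mcm2, a helicase subunit, had 98.8 and 97.5 CPM at 1 h and 108 and 104 CPM at 0 h (-0.11 ± 0.11). Rrm2, a subunit of ribonucleotide reductase, had 88.5 and 95.6 CPM at 1 h and 98.2 and 86.7 CPM at 0 h, which overlap. Of 28 replication fork genes 3 were called higher. Top2a, the topoisomerase that untangles sister DNA and peaks in G2, had 273 and 299 CPM at 1 h and 144 and 144 CPM at 0 h (0.99 ± 0.10, edgeR adjusted p = 4e-05). The calls of Rpa1 and Asf1b, both at 0.42, were each lost without any 1 of the 4 libraries (adjusted p over the 12 alternatives up to 0.324 and 0.368). Of 26 genes of G1 cyclins, E2F and RB, E2f1 was called lower, with 30.9 and 29.4 CPM at 1 h and 44.2 and 42.1 CPM at 0 h (-0.52 ± 0.12, edgeR adjusted p = 0.017), a call lost without any 1 of the 4 libraries (adjusted p up to 0.198).

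Few pluripotency genes were called. Of 11 tested core genes, Lin28a, which blocks let-7 maturation, rose to 25 and 26 CPM at 1 h, against 14.4 and 14.3 CPM at 0 h (0.83 ± 0.14, edgeR adjusted p = 0.0022). Its call was lost with either scaling by total counts (adjusted p up to 0.0868). Pou5f1 had 101 and 101 CPM at 1 h and 82.8 and 79.1 CPM at 0 h (0.32, adjusted p = 0.29), and Nanog had 288 and 364 CPM at 1 h and 399 and 361 CPM at 0 h (-0.22, adjusted p = 0.49). Of 17 naive genes, Tcl1 was called higher (0.58) and Nr0b1, Prdm14 and Tbx3 lower. Nr0b1, an orphan nuclear receptor, had 11.4 and 8.64 CPM at 1 h and 18.4 and 20.9 CPM at 0 h (-0.96 ± 0.17, edgeR adjusted p = 0.0033), a call lost without replicate 2 of 4HT 1 h (adjusted p = 0.0762). Tbx3 had 337 and 354 CPM at 1 h and 492 and 444 CPM at 0 h. Esrrb had 1051 and 1094 CPM at 1 h and 1192 and 1094 CPM at 0 h (-0.09, adjusted p = 0.75). The calls of Tcl1, Prdm14 and Tbx3 were lost without any 1 of the 4 libraries. Over the 12 alternatives the adjusted p reached 0.341 for Tcl1, 0.226 for Prdm14 and 0.237 for Tbx3.

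Genes of signalling pathways were called in both directions. In the FGF and ERK feedback list, Spry4, an inhibitor of the pathway, had 25.6 and 22 CPM at 1 h, against 12 and 9.15 CPM at 0 h (1.16 ± 0.18, edgeR adjusted p = 0.0015). Dusp5, a nuclear ERK phosphatase, had 9.96 and 13.1 CPM at 1 h and 22.3 and 20.6 CPM at 0 h (-0.90 ± 0.15, edgeR adjusted p = 0.0026). Il17rd (0.63) was also called higher and Etv5 (-0.37) lower, of 19 tested, the call of Etv5 being lost without any 1 of the 4 libraries (adjusted p up to 0.303), and that of Il17rd with either scaling by total counts (adjusted p up to 0.0774). Among 17 genes of the TGF-beta and nodal response, the inhibitors of differentiation Id3 and Id2 were lower and Skil and Lefty2 higher. Id3 had 7.58 and 6.51 CPM at 1 h and 17.5 and 14.4 CPM at 0 h (-1.18 ± 0.23, edgeR adjusted p = 0.0059), a call lost without replicate 1 of 4HT 0 h or replicate 2 of 4HT 1 h (adjusted p up to 0.102). The calls of Id2 (-0.76) and Lefty2 (0.57) were lost without any 1 of the 4 libraries, and that of Skil (0.68) without replicate 1 of 4HT 0 h or replicate 2 of 4HT 1 h. Of 12 primitive endoderm genes 4 were called lower, Gata6, Pdgfra, Col4a1 and Col4a2, while 5 of the 12 had a positive fitted change and the list median was -0.07. The summed endoderm markers given above were lower at 1 h, but that sum includes Gata6 and is not separate evidence. Gata6 had 12.5 and 10.1 CPM at 1 h and 19.7 and 17.3 CPM at 0 h (-0.70 ± 0.13), lost without replicate 1 of 4HT 0 h or replicate 2 of 4HT 1 h (adjusted p up to 0.085). The calls of Pdgfra, Col4a1 and Col4a2, at -0.85, -0.45 and -0.60, were each lost without at least 3 of the 4 libraries in turn, and the part of cells with these markers in the calls was not tested. Nkd1 of the WNT pathway (-1.04) and the serum response factor Srf (-0.74) were called lower, and both calls were lost without replicate 1 of 4HT 0 h or replicate 2 of 4HT 1 h (adjusted p up to 0.0782 for Nkd1 and 0.155 for Srf).

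The 15 largest falls, under the same conditions on level and symbol, included genes of the cell surface, matrix and metabolism. Pdk4, which restrains pyruvate oxidation, had 3.29 and 1.81 CPM at 1 h, against 8.08 and 6.31 CPM at 0 h (-1.47 ± 0.25, edgeR adjusted p = 0.0024). Col27a1, a fibrillar collagen, had 22.2 and 14.8 CPM at 1 h and 49.7 and 49.4 CPM at 0 h (-1.41 ± 0.17, edgeR adjusted p = 0.00029). Slc25a18, a mitochondrial glutamate carrier, had 6.92 and 7.47 CPM at 1 h and 19.7 and 16 CPM at 0 h. In all 3 the times did not overlap. The others were Fos, Angptl2, Clic6, Fam114a1, Cacna2d2, Itgb2, Trim66, Unc45b, Ackr4, Fat2, Fbln2 and Ush1c, at log2 changes of -1.30 to -1.87. Those of Angptl2, Fam114a1, Itgb2, Trim66, Ackr4, Fbln2, Ush1c and Fos were not called without 1 or more of the 4 libraries, with adjusted p over the 12 alternatives up to 0.286 (Ush1c). Among genes picked after their values were seen, for small p, Adamts2, a procollagen protease, had 20.8 and 20.1 CPM at 1 h and 42.2 and 49.1 CPM at 0 h (-1.16 ± 0.12, edgeR adjusted p = 5.8e-05). Sdc4, a heparan sulfate proteoglycan, had 208 and 206 CPM at 1 h and 401 and 368 CPM at 0 h (-0.89 ± 0.11). Fam129b rose, with 93.2 and 89.7 CPM at 1 h and 35.4 and 33.5 CPM at 0 h (1.41 ± 0.13, edgeR adjusted p = 2.7e-05).

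On the mitochondrial genome the change followed the annotated strand. The minus strand carries mt-Nd6 and several transfer RNA genes. Of its 5 tested genes 4 were called higher, and DESeq2 called 2 of the 5. The median was 2.67, the value of mt-Ta. Few counts lie behind mt-Ta, with 14 and 15 at 1 h and 2 and 2 at 0 h, and mt-Te, with 10 and 14 at 1 h and 0 and 1 at 0 h. At 0 h both were below the floor of 3 counts. On the plus strand 0 of 16 were called by edgeR, with 0 at an unadjusted p under 0.05, and 0 by DESeq2, and the median was -0.07. mt-Nd6, a complex I subunit, had 196 and 218 CPM at 1 h, against 39.9 and 38.1 CPM at 0 h, a 5.3-fold rise (2.40 ± 0.29, edgeR adjusted p = 0.00026). mt-Tp, the proline transfer RNA, had 5.44 and 8 CPM at 1 h and 0.681 and 1.29 CPM at 0 h. Both were clear of the 0 h libraries. mt-Co1, on the plus strand, had 780 and 534 CPM at 1 h and 565.5 and 850.5 CPM at 0 h, which overlap. mt-Nd6 was still at 182 and 163 CPM at 2 h. In the ethanol arm 4 of the 5 minus-strand genes were also called higher, but not the same 4. There mt-Tq was called and mt-Ta was not (edgeR adjusted p = 0.0758), while in 4HT mt-Tq was the gene not called (edgeR adjusted p = 0.0902).

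Many of these changes were also called in vehicle-treated cells, which share no library with the 4HT arm. In ethanol, 1842 genes were called higher and 1407 lower over the first hour, 18.3% of those tested (10.4% higher and 7.93% lower). The ethanol count was 1325 and 1330 without replicates 1 and 2 of EtOH 1 h, and 1798 and 700 without replicates 1 and 2 of EtOH 0 h. The balance of directions in ethanol turned with the processing, to 654 higher and 1087 lower with scaling by total counts alone and 1735 higher and 2641 lower without the low-count filter, while scaling outside the ribosomal RNA genes gave 2292 higher and 770 lower. The 2 ribosomal RNA genes took 14.7 and 22.8% of counts at 1 h and 4.92 and 3.41% at 0 h after ethanol, and 18 and 16.8% at 1 h and 19.7 and 15.6% at 0 h after 4HT. The part of that share in the ethanol changes, and in the differences between arms, was not tested. Of the 565 genes higher after 4HT, 382 were called higher in ethanol (67.6%, and 20.7% of the ethanol list). Of the 528 lower genes, 292 were called lower in ethanol (55.3%, and 20.8%), and 0 genes were called in opposite directions. All 47 called histone genes and 17 of the 20 called mitotic genes were called higher in both arms, while 5 of the 8 immediate early genes and 2 of the 7 p53 targets were called lower in both. The histone list had a median of 1.46 after 4HT and 1.59 in ethanol, and the mitotic list of 0.69 after 4HT and 0.79 in ethanol. The immediate early list had a median of -0.41 after 4HT and -0.07 in ethanol, and the p53 list of -0.18 after 4HT and -0.20 in ethanol.

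**Figure D4:**
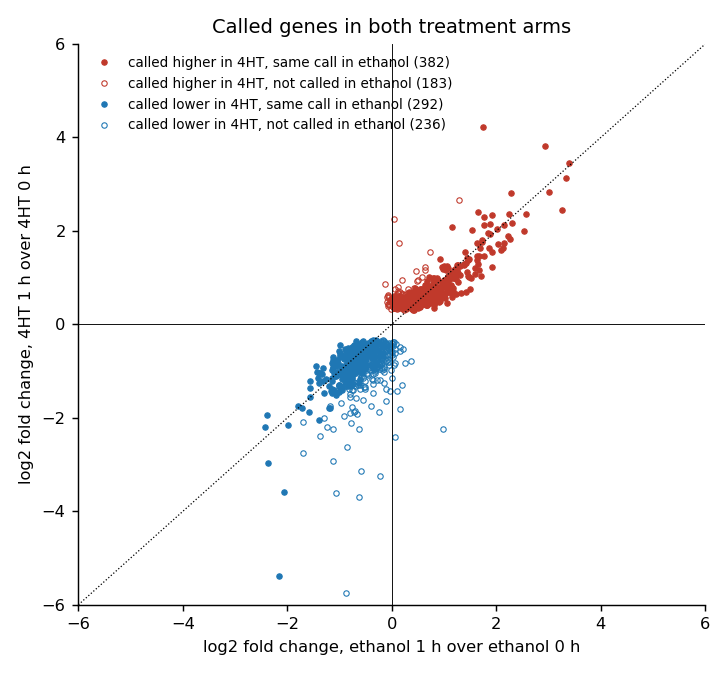
Log2 change over the first hour in 4HT (vertical) and ethanol (horizontal) for the 1093 genes called in 4HT, filled where the same call was made in ethanol. The dotted line marks equal change. The 382 filled red and 292 filled blue points share their sign in both arms by the way they were defined. Filled or not, 550 of the 565 higher and 505 of the 528 lower genes had the same sign in ethanol.

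The difference between the arms was tested directly. For the difference of the 1 h change (4HT minus EtOH), 0 genes (0%) passed in edgeR, where the lowest adjusted p was 0.346. There were 2517 genes at an unadjusted p under 0.05 in edgeR, and 0 called with 2329 at that level in DESeq2. Without the low-count filter edgeR called 1499, of which 1491 were among the genes tested with the filter, so that the 0 depends on that filter. Among well-detected genes the smallest unadjusted p belonged to Thyn1, which had 16.6 and 17 CPM at 1 h and 19.9 and 20 CPM at 0 h after 4HT, and 25.7 and 24.1 CPM at 1 h and 18.9 and 17.7 CPM at 0 h after ethanol. The 4HT libraries were lower at 1 h and the ethanol libraries higher, with adjusted p of the difference of 0.346. Cep19, Mrgbp, Itgb4, Cdk5rap3, Gusb, Prdx2, Col9a2 and Spin4 had fitted changes of -0.78 (Itgb4) to 0.08 (Gusb) in 4HT and of 0.37 (Itgb4) to 1.24 (Cep19) in ethanol, and Atp10a had 0.42 in 4HT and -0.77 in ethanol.

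Cytosolic ribosomal protein genes had unlike medians in the arms. In 4HT 0 of 79 were called by edgeR (median 0.01), with 1 higher and 2 lower at an unadjusted p under 0.05, and DESeq2 called 0 higher and 1 lower, while in ethanol 55 were called higher (median 0.49). The median of their difference was -0.45, with 54 of 79 at an unadjusted p under 0.05 and 0 called. Without the low-count filter 14 of 84 were called lower and 0 higher for this difference. Its median was -0.21 after removal of the length trend and -0.75 with scaling outside the ribosomal RNA genes. The share of the ribosomal RNA genes differed between times in ethanol as given above. The 4HT median alone was -0.10 with total counts and -0.11 outside those genes, close to the shift of all genes. Rps2 had 87.8 and 102 CPM at 1 h and 93.8 and 94.3 CPM at 0 h after 4HT, and 123 and 133 CPM at 1 h and 69.2 and 73 CPM at 0 h after ethanol. Its 4HT libraries overlapped between times and its ethanol libraries did not. Glycolysis genes were called higher in 3 of 22 cases after 4HT and 9 in ethanol, with a median difference of -0.26. Gapdh had 174 and 179 CPM at 1 h and 174 and 181 CPM at 0 h after 4HT, and 227 and 264 CPM at 1 h and 140 and 145 CPM at 0 h after ethanol.

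The change over the first hour moved with the level of the gene in 4HT. The median log2 change was -0.22 for 4148 genes with an average log2 CPM under 1, where 10 were called higher and 67 lower, -0.02 for 3952 genes of 3 to 5, and 0.18 for 1904 genes over 7, where 119 were called higher and 28 lower. Genes called higher had a median log2 CPM of 5.95 and those called lower of 3.73, against 3.57 for all tested. The part of this trend in the calls was not tested.

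The change was also set against gene length. In 4HT the median log2 change was -0.05 for 534 genes of 1 to 3 kb, 0.10 for 4187 genes of 30 to 100 kb and -0.002 for 486 genes of over 300 kb. In ethanol it was 0.30, -0.14 and -0.81 in the same classes. Across 13591 genes Spearman's rho of change with length was 0.112 in 4HT, -0.515 in ethanol and 0.572 for the difference, given as descriptions since genes share libraries and are not independent. In 4HT it was -0.1 without replicate 1 and 0.26 without replicate 2 of 4HT 0 h, and 0.135 and 0.059 without replicates 1 and 2 of 4HT 1 h. Median lengths were 33851 bases for those called higher, 34738 for those called lower and 23132 for all tested. After removal of the length trend 949 genes were called in 4HT, 23 of the 32 mitotic genes and 49 of the 65 histone genes among them.

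**Figure D5:**
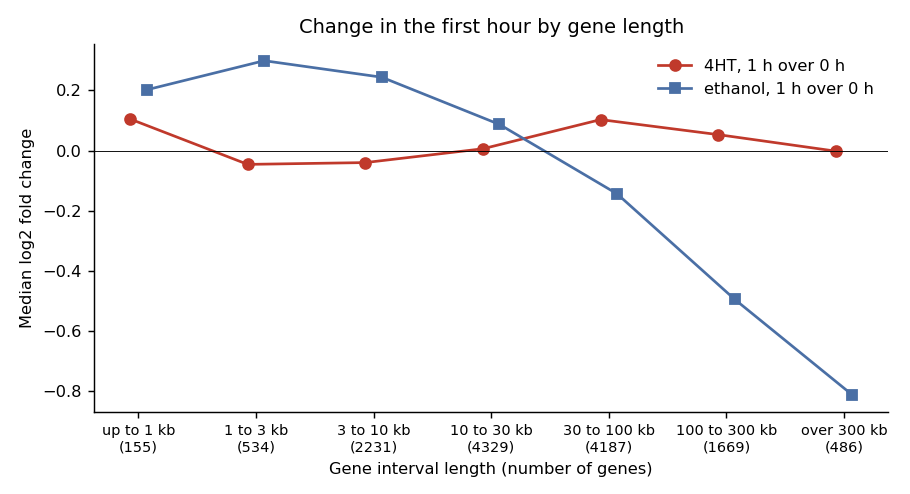
Median log2 change, 1 h over 0 h (vertical) in classes of gene interval length (horizontal, number of genes in brackets) for 4HT (red) and ethanol (blue). The 4HT medians stay between -0.046 and 0.105, while the ethanol medians run between 0.299 and -0.813.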

How the data were processed

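The authors deposited raw read counts per gene over whole gene intervals; per the submitters' processing notes reads were aligned with STAR to mm10 and counted with featureCounts, versions not given in the sources used here. Gene symbols were matched for 54723 of 54752 identifiers by stable ID. Counts of all 24 synchronized libraries (12 groups of 2) were fitted with edgeR 4.0.16 (quasi-likelihood test, TMM scaling, low-count filter at a minimum count of 10) in R 4.3.3, with calls at an adjusted p (Benjamini-Hochberg) below 0.05. Levels are TMM-normalised CPM (counts per 1000000), and standard errors were derived from the F statistic. Fits were tested on simulated counts. Intervals and floors cover counting error only. Alternatives comprised DESeq2 1.42.0, other scalings, no filter, the compared groups alone, a replicate block, removal of a length trend (limma 3.58.1 spline basis) and leaving out each library. The comparison and gene lists were chosen with earlier results of these data known. Genes were named by rule: called, separated between times, average log2 CPM of at least 1, established symbol, then the 15 largest changes each way. The rule also took the 4 smallest p of each list and the 10 smallest p for the difference between arms. Some others are stated as chosen later. Further list members were examples picked outside this rule, among them Rps2, Gapdh, Mcm2, Rrm2, Esrrb, Cdkn1a, Nr4a1, Myc and Cenpf. Not every gene that this rule selects is reported here.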

Additional observations from a re-analysis of the deposited data

How the results depend on the processing

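Of 252 genes followed through 12 alternatives, 166 were called and 58 of these were called under every alternative, and 0 reversed. Scaling by total counts alone gave 341 called genes, 1741 in ethanol, 10 mitotic genes and 4 p53 targets; scaling outside Gm26917 and Gm42418 gave 545 genes, 13 mitotic genes and 5 immediate early genes. With the compared groups alone 391 genes and 4 p53 targets were called. Without the low-count filter the difference between arms gave 1499 calls in place of 0; the cause of these changes was not tested. Leaving out single libraries gave 234 to 656 genes after 4HT, 700 to 1798 in ethanol, 13 to 16 mitotic genes, 23 to 35 histone genes, 2 to 5 immediate early genes and 1 to 4 p53 targets. The fit used here did not pair libraries by replicate number. Same-numbered 4HT 1 h and 0 h libraries had a correlation of deviations of 0.106, and all pairs of groups -0.236 to 0.565. These values do not settle whether replicate numbers pair the samples. A replicate block gave 1505 genes after 4HT and 5253 in ethanol (2343 higher, 2910 lower), Foxd3 lower against ethanol at 0 h (adjusted p = 0.0388), and 26 mitotic, 54 histone, 9 immediate early and 9 p53 genes. DESeq2 (1237 genes), RLE scaling (1094), no filter (782) and removal of the length trend (949) kept the count after 4HT within 1.5 times. Of 396 list medians, 320 moved by less than the spread between replicates. With 2 libraries a group, depth limits genes near the floor, such as Fosb and Egr1. Settings for Foxd3 against ethanol, for gene length and DESeq2 on the lists were chosen after seeing the data.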

Other observations

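The gene groups below held 1 to 3 called genes each (edgeR quasi-likelihood test, adjusted p under 0.05). Over all genes tested 3.19% were called higher and 2.98% lower, and 3513 of 17739 had an unadjusted p under 0.05. Some other groups held 0, such as cholesterol synthesis (23 tested) and two-cell-like genes (15 tested). Of 17 clock genes 3 were called lower: Tef, a PAR bZIP factor, had 23.4 and 20.4 CPM at 1 h and 38.5 and 33.4 CPM at 0 h (-0.71 ± 0.10, edgeR adjusted p = 0.001), and Nr1d2 and Bhlhe41 were at -0.54 and -1.39. Tef was called under all 12 alternatives, while Nr1d2 (adjusted p up to 0.183) and Bhlhe41 (up to 0.512) were not. Of 23 Polycomb and chromatin regulators 3 were called higher and 0 lower, with 8 higher and 0 lower at an unadjusted p under 0.05 and 5 higher and 0 lower by DESeq2. Kmt2a, an H3K4 methyltransferase, had 203 and 211 CPM at 1 h and 126 and 129 CPM at 0 h (0.69 ± 0.13), Chd4 was at 0.70 and Hdac1 at 0.35. The calls of Kmt2a and Chd4 were lost without replicate 1 or 2 of 4HT 0 h or replicate 2 of 4HT 1 h. That of Chd4 was also lost with scaling outside the ribosomal RNA genes. The call of Hdac1 was lost in 9 of 12 alternatives, among them leaving out any 1 of the 4 libraries.

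Of 16 heat shock genes, Hsph1, an HSP110 chaperone, was called higher, with 73.1 and 78.5 CPM at 1 h and 42 and 46.8 CPM at 0 h (0.77 ± 0.11, edgeR adjusted p = 0.001), except under total-count scaling (adjusted p = 0.0853). Cryab was called lower (-0.86), a call lost with the compared groups alone and without any 1 of the 4 libraries (adjusted p up to 0.19). Tpm1, a tropomyosin, had 138 and 134 CPM at 1 h and 89.2 and 88 CPM at 0 h (0.62 ± 0.08, edgeR adjusted p = 0.00035), a call lost with either scaling by total counts (adjusted p up to 0.109). Mycn, by contrast with Myc, was called lower, with 35.2 and 33.4 CPM at 1 h and 60.7 and 48.5 CPM at 0 h (-0.67 ± 0.16, edgeR adjusted p = 0.017). Its call was lost without replicate 1 of 4HT 0 h or either library of 4HT 1 h (adjusted p up to 0.252).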
